A study of Mus musculus with 9 samples.

Results

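Myc, its paralogs Mycn and Mycl, the shared partner Max, the Max-binding antagonists Mxd1, Mxd3, Mxd4, Mxi1 and Mnt, and the long noncoding RNA gene Pvt1 next to Myc were followed in sorted tumor cells of a mouse model of pancreatic ductal adenocarcinoma (PDAC). These 10 genes were chosen by name as the Myc network and were found by their Ensembl identifiers among the 47643 genes counted. All 10 had at least 100 counts over the 9 libraries and were among the 14105 genes tested.

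The KPF group held 6 libraries, each from sorted GFP+Yap+ cells, and the KPYYF group 3 libraries from sorted Tm+Yap- cells of nodules that had relapsed under treatment. They were compared to ask which genes differ in tumor cells that grew back without Yap, a transcriptional coactivator of the Hippo pathway. The mice of both groups shared their tumor-driving alleles, among them Trp53 frt/+, together with Pdx-Flp and R26 FSF-CreER/Dual, so that Flp made in the pancreas under a Pdx1 promoter removed an allele of Trp53 and allowed CreER to be made. KPYYF mice carried Yap flox/flox in addition. Mice of both genotypes were given tamoxifen (TAM), which activates CreER and turns the Dual reporter from GFP to tdTomato (Tm). GFP+ cells were thus cells without Cre recombination and Tm+ cells were recombined, and genotype, Yap status and reporter color cannot be told apart in this comparison. Mice of both sexes were used, and their ages are given only as a range for the whole study. KPF libraries 4504h and 4504s carry the same mouse number, so the 6 KPF libraries came from 5 mouse numbers. All libraries are named here by genotype and mouse number.

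Myc is a transcription factor of the basic helix-loop-helix leucine zipper class that binds DNA as a heterodimer with Max, preferentially at the E-box CACGTG, and raises genes of ribosome assembly, nucleotide synthesis and cell growth. Mycn and Mycl encode paralogs with the same partner but a more restricted expression in development. Mxd proteins, Mxi1 and Mnt compete for Max and recruit Sin3 corepressors to the same sites. Pvt1 lies just downstream of Myc and is often co-amplified with it in cancers, and its promoter and transcripts have each been linked to Myc regulation. In the pancreas, Myc is needed for growth of the exocrine tissue.

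Since Max heterodimers recognize CACGTG, the promoters of the network genes were searched for it. RefSeq promoter sequences (build GRCm38.p6, from 250 bases before to 50 bases after the start) were at hand for 8 of the 10 genes, other than Myc and Pvt1. The E-box was found in 3 of the 8, those of Max, Mxd4 and Mnt, against 8.09% of 27025 genes with a promoter and 11.6% of the 10300 tested genes with one. The palindrome reads the same on both strands. Counting the start base as 0, the first base of the motif lies at -3 in Max, -219 in Mxd4 and -123 in Mnt. The Mycn promoter held no CACGTG but carried the E2F-type motif TTTGGCGC at -183 and again at -168. Searched on both strands, this motif is present in 0.585% of the 27025 genes with a promoter and in 1.09% of the 10300 tested genes with one. Among the 8 network genes with a promoter at hand, only Mycn carried it. That motif was chosen after the Mycn promoter had been read. Nop2 and Hspd1, which encode a nucleolar RNA methyltransferase and the mitochondrial chaperone Hsp60, are printed as examples of 10 Myc-induced targets with an E-box. They are the only ones of these 10 with an unadjusted p under 0.05 and a change over 2-fold (edgeR). The others had log2 fold changes from 0.21 (Paics) to 0.77 (Mybbp1a). In the following stretches the motif is in capitals.
Max, chr12:76962219-76962278, minus strand: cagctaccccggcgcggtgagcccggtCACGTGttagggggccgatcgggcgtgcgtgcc
Mxd4, chr5:34187897-34187956, minus strand: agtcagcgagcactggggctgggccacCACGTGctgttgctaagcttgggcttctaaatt
Mnt, chr11:74830774-74830833, plus strand: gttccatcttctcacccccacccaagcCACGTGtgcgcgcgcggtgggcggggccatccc
Mycn, chr12:12941970-12942046, minus strand: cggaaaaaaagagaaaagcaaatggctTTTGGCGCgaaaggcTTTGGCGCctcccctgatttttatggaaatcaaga
Nop2, chr6:125131796-125131855, plus strand: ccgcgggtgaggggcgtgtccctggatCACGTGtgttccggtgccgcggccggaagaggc
Hspd1, chr1:55088291-55088350, minus strand: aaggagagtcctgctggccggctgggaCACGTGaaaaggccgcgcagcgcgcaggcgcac

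The libraries held 8116539 to 9635514 counts on genes, so that 3 counts, the limit that a count of 0 allows, corresponded to 0.291 to 0.436 CPM, counts scaled to a common library total. Yap1, the targeted gene, had 41.7 to 151 CPM in KPF and 0.711, 2.84 and 7.10 CPM in KPYYF libraries (adjusted p = 0.0159, edgeR's quasi-likelihood test). Of 9 ductal epithelial markers, 3 (Cdh1, Krt18 and Muc1) fell, where 0.794% of all tested genes did, but 0 passed without KPYYF 4891 or without KPYYF 4938 and 1 passed without KPF 4269, 4435 or 4504s, with a term for sex or with only the libraries high in Xist. The markers summed to 3569 to 11923 CPM in KPF against 646 to 2141 CPM in KPYYF, with none at 0. Markers of 10 fibroblast genes summed to 409 to 5527 and 1239 to 3315 CPM, and 10 immune markers to 415 to 9007 and 360 to 753 CPM, in KPF and KPYYF libraries respectively. The highest immune sum was that of KPF 4601. Acinar markers were highest in KPF 4504s, at 14021 CPM, and KPYYF 4449, at 3624 CPM, endothelial markers summed to at most 67.8 CPM and islet markers to at most 58.5 CPM in any library. Of 4 Schwann cell markers, Sox10 was at 0 in all libraries, and the sum ranged from 18.1 to 96.7 CPM in KPF and from 0.545 to 7.34 CPM in KPYYF libraries. Xist had at least 1000 counts in all 3 KPYYF libraries and in KPF 4435, 4504h and 4504s, and 71 to 159 counts in KPF 4269, 4515 and 4601. In sorted bulk samples, fewer cells of a type and less RNA per cell cannot be told apart.

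Pvt1 rose in the Yap-negative cells, the only gene of the 10 that passed the test after adjustment over all genes. Myc itself was also higher in every KPYYF library than in any KPF library without passing that adjustment, and Mycn was lower in every KPYYF library. Mycl showed no separation of the groups. Max and the low-level antagonist Mxd3 were higher in all KPYYF libraries, while Mxd1, Mxd4, Mxi1 and Mnt overlapped between groups.

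**Figure D1:**
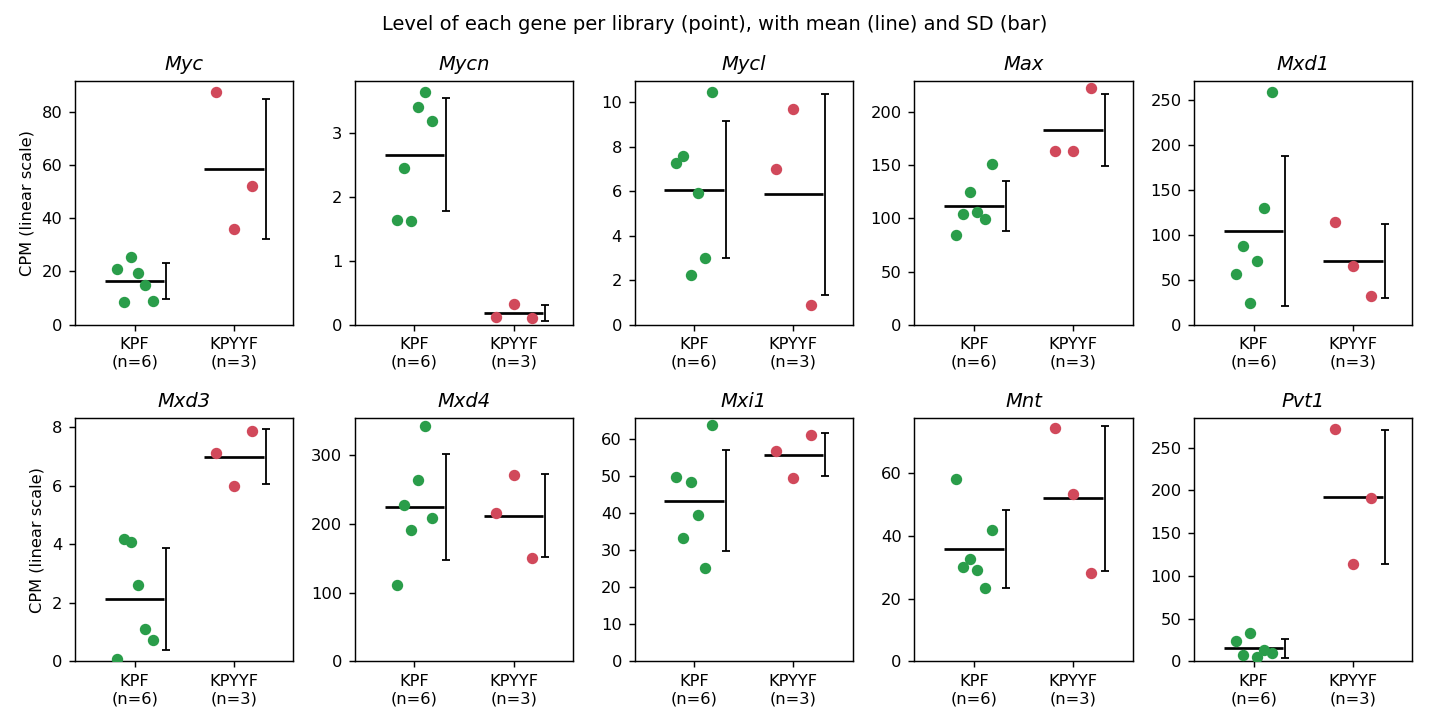
Level of each of the 10 genes in CPM on a linear scale starting at 0, with a point for each KPF (green) and KPYYF (red) library, a line at the group mean and a bar for the SD. The points of Myc, Max, Mxd3 and Pvt1 lie higher in all 3 KPYYF libraries, those of Mycn lower, and the other 5 genes overlap.

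Myc (ENSMUSG00000022346, chr15:61985391-61990374, plus strand, coordinates of GENCODE M21 on GRCm38 here and for the genes that follow) stood at 20.9, 8.58, 25.4, 19.3, 15.01 and 9.01 CPM in KPF 4269, 4435, 4504h, 4504s, 4515 and 4601. In KPYYF 4449, 4891 and 4938 it stood at 87.5, 36.0 and 52.0 CPM. The lowest KPYYF library lay above the highest KPF library, and the KPYYF values themselves varied widely. The means were 16.4 ± 6.73 CPM (SD, n = 6) and 58.5 ± 26.4 CPM (SD, n = 3), a log2 fold change of 1.84 with a standard error of 0.44. The adjusted p was 0.0631 with edgeR's quasi-likelihood test (unadjusted p = 0.000986), just short of the threshold of 0.05. DESeq2, which called more of all tested genes as well, gave an adjusted p of 0.00555. Over the 18 alternatives of the last section (edgeR, DESeq2 or limma-voom), Myc was called in 2 and its adjusted p reached 0.267. The change met the rule of the study's methods, an unadjusted p under 0.05 and a change over 2-fold. The sum of 22 proliferation genes moved in the same direction, from 672 to 1373 CPM in KPF to 1597 to 2321 CPM in KPYYF libraries, and its part in the Myc difference was not tested.

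Mycn (ENSMUSG00000037169, chr12:12936093-12941914, minus strand), the paralog known from neuroblastoma and embryonic progenitors, was counted at a low level. The 6 KPF libraries, in the order given for Myc, held 17, 24, 16, 30, 33 and 22 counts, or 1.65, 2.45, 1.63, 3.41, 3.64 and 3.20 CPM. The 3 KPYYF libraries held 1, 3 and 1 counts, all at or under the limit of 3. The groups did not overlap. Over the pooled counts, 142 against 5, the level in KPF was 13.9 times that in KPYYF after scaling, with a 95% interval of 5.82 to 43.5 that covers counting error only. The fitted log2 fold change was -3.75 with a standard error of 1.51 (adjusted p = 0.234, edgeR, and unadjusted p = 0.0272). DESeq2 gave an adjusted p of 0.0256. That was the only call of Mycn in 17 alternatives (edgeR, DESeq2 or limma-voom), over which its adjusted p reached 0.442. Among the network genes with a promoter at hand, Mycn is the one with the pair of E2F-type motifs printed above.

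Mycl (ENSMUSG00000028654, chr4:122995652-123002485, plus strand), the paralog first described in small cell lung cancer, stood at 7.28, 7.56, 2.24, 5.91, 2.98 and 10.5 CPM in KPF libraries. It stood at 6.99, 9.71 and 0.874 CPM in KPYYF libraries, so that KPYYF 4938 held the lowest and KPYYF 4891 the second highest level of all. The log2 fold change was -0.05 with a standard error of 0.92 (adjusted p = 0.988, edgeR), and it turned to 0.46 without KPYYF 4938.

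The paralogs were then set side by side within each library. Since the 3′ end kit reads a tag near the end of each transcript, these CPM are not scaled by transcript length and the counts of the paralogs were added as they stood. Myc, Mycn and Mycl together summed to 18.6 to 29.8 CPM in KPF and to 94.6, 46.0 and 53.0 CPM in KPYYF libraries. Myc made up 70.0, 46.2, 86.8, 67.5, 69.4 and 39.7% of these counts in the KPF libraries and 92.5, 78.2 and 98.1% in the KPYYF libraries. Thus KPF 4504h, with the highest Myc level of its group, exceeded KPYYF 4891 in the Myc share. The Mycn share was 5.54 to 16.8% in KPF and 0.125, 0.711 and 0.206% in KPYYF libraries, and the Wilson 95% intervals of the shares reached down to 3.46% in KPF and up to 2.07% in KPYYF. The Mycl share was 7.67 to 46.2% in KPF and 7.38, 21.1 and 1.65% in KPYYF. In KPF 4601 the Mycl share of 46.2% was above the Myc share of 39.7%, with overlapping intervals of 38.5 to 54.0% and 32.4 to 47.6%.

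**Figure D2:**
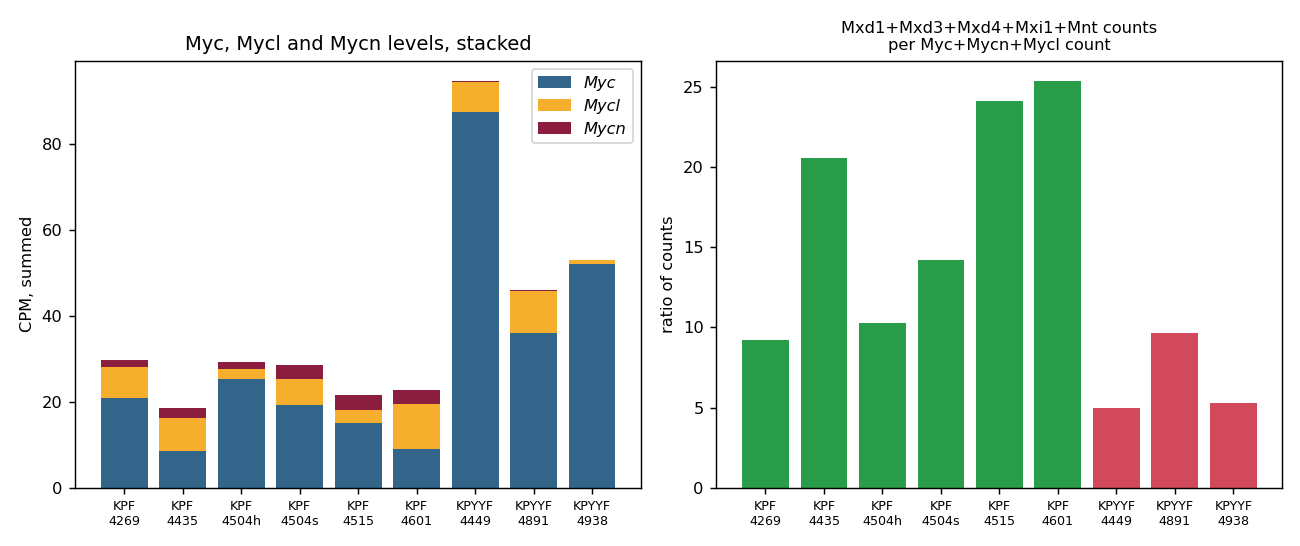
Left, CPM of Myc (blue), Mycl (yellow) and Mycn (dark red) stacked for each library; right, counts of Mxd1, Mxd3, Mxd4, Mxi1 and Mnt divided by the counts of Myc, Mycn and Mycl, with KPF in green and KPYYF in red. The stacks reach 94.6, 46.0 and 53.0 CPM in the KPYYF libraries, all above the KPF libraries, and the ratios range from 9.23 to 25.4 in KPF and from 4.95 to 9.66 in KPYYF.

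Pvt1 (ENSMUSG00000097039, chr15:62037986-62378096, plus strand, long intergenic noncoding RNA) stood at 23.5, 6.95, 33.6, 5.23, 12.9 and 10.03 CPM in KPF libraries. In KPYYF 4449, 4891 and 4938 it stood at 272, 114.5 and 191 CPM. The lowest KPYYF library was thus well above the highest KPF library, 4504h, which also had the highest Myc level of its group. Means were 15.4 ± 11.0 CPM (SD, n = 6) and 192 ± 78.6 CPM (SD, n = 3), and the log2 fold change was 3.64 with a standard error of 0.53, a 12.5-fold rise (adjusted p = 0.0141, edgeR). The adjusted p stayed between 0.0108 and 0.0418 when each library was left out in turn. It was 0.00923 with the 4504 libraries summed. With a term for sex taken from Xist the log2 fold change was 3.65 and the adjusted p 0.0759, and with only the 6 libraries high in Xist it was 3.66 and the adjusted p 0.124, so the size held while the call did not. The order of the KPYYF libraries was the same for Pvt1 as for Myc, and each Pvt1 count was 3.10, 3.18 and 3.66 times the Myc count of its library, against 0.271 to 1.33 times in KPF. Small RNA genes annotated within Pvt1 had no counts.

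Max (ENSMUSG00000059436, chr12:76937269-76962201, minus strand), the obligate partner, stood at 84.6, 104, 124, 106, 99.1 and 151 CPM in KPF and at 163, 164 and 222 CPM in KPYYF libraries. The groups did not overlap, and KPF 4601 came nearest to the KPYYF libraries. The log2 fold change was 0.71 with a standard error of 0.26 (adjusted p = 0.193, edgeR; unadjusted p = 0.0169). Max counts exceeded the summed counts of Myc, Mycn and Mycl in every library, by 2.84 to 6.67 times in KPF and by 1.73, 3.55 and 4.19 times in KPYYF. These ratios overlapped between the groups.

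Among the antagonists, Mxd4 was the most abundant in every library but KPF 4601, where Mxd1 was. Mxd4 (ENSMUSG00000037235, chr5:34173883-34187720, minus strand), an Mxd protein of differentiating cells, stood at 111, 228, 192, 264, 343 and 209 CPM in KPF and 215, 270 and 150 CPM in KPYYF libraries, with a log2 fold change of -0.08 and a standard error of 0.34 (adjusted p = 0.943, edgeR). The KPYYF libraries lay within the KPF range. Mxd1 (ENSMUSG00000001156, chr6:86647042-86669161, minus strand), which replaces Myc on Max as cells differentiate, stood at 56.1, 87.3, 24.4, 71.5, 130 and 260 CPM in KPF and 115, 65.4 and 32.2 CPM in KPYYF libraries. It ranged more than any other antagonist above 10 CPM, and its highest library, KPF 4601, also had the highest immune marker sum, whose part was not tested. Its log2 fold change was -0.56 with a standard error of 0.64 (adjusted p = 0.736, edgeR), -0.05 without KPF 4601 and 0.22 with the term for sex. Gm44292, an unverified gene on the same strand within Mxd1, was given counts of its own (log2 fold change -0.74, adjusted p = 0.557, edgeR), so the level of Mxd1 is uncertain.

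Mxd3 (ENSMUSG00000021485, chr13:55325168-55329823, minus strand), the Mxd gene expressed in the S phase of dividing progenitors, was the rarest antagonist. It stood at 0.0970, 4.19, 4.08, 2.61, 1.10 and 0.727 CPM in KPF and at 7.11, 6.00 and 7.87 CPM in KPYYF libraries. All KPYYF libraries were above all KPF libraries, of which KPF 4269 held less than the limit of 3 counts. The pooled counts were 120 in KPF and 187 in KPYYF, and the log2 fold change of 1.70 had a standard error of 1.11 (adjusted p = 0.497, edgeR). The 3′ end of Mxd3 meets that of Prelid1 on the opposite strand, and the strand setting of the counting is not given in the sources used here. Prelid1 itself had a log2 fold change of -0.16 (adjusted p = 0.893, edgeR).

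Mxi1 (ENSMUSG00000025025, chr19:53310518-53375810, plus strand), also known as Mxd2, stood at 49.7, 33.3, 48.5, 39.4, 25.3 and 63.8 CPM in KPF and at 56.7, 49.5 and 61.2 CPM in KPYYF libraries. Its log2 fold change was 0.37 with a standard error of 0.34 (adjusted p = 0.661, edgeR), and KPF 4601 exceeded every KPYYF library. Mnt (ENSMUSG00000000282, chr11:74830920-74845725, plus strand), the broadly expressed Max partner that opposes Myc in proliferating cells, stood at 58.1, 29.9, 32.4, 29.2, 23.4 and 41.9 CPM in KPF and 74.3, 53.1 and 28.1 CPM in KPYYF libraries. Its log2 fold change was 0.53 with a standard error of 0.39 (adjusted p = 0.558, edgeR), with KPYYF 4449 highest and KPYYF 4938 among the lowest.

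The 5 antagonists together summed to 275 to 575 CPM in KPF and to 468, 444 and 279 CPM in KPYYF libraries, which overlapped. Per count of Myc, Mycn and Mycl the antagonists gave 9.23, 20.6, 10.3, 14.2, 24.1 and 25.4 counts in the KPF libraries and 4.95, 9.66 and 5.27 counts in the KPYYF libraries. KPYYF 4891 lay above KPF 4269 in this ratio. Mxd1 alone gave 0.960 to 28.8 counts per Myc count in KPF and 1.31, 1.82 and 0.620 in KPYYF.

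Read against all genes, 1 of the 10 genes was higher at an adjusted p under 0.05, where 0.305% of the 14105 tested genes were higher and 0.794% lower. By the rule of the study's methods, 2 of the 10 were higher, Myc and Pvt1, and 1 was lower, Mycn, against 4.2% and 9.2% of all tested genes. The groups did not overlap for 4 higher genes and 1 lower gene, against 3.92% and 5.18% of all tested genes. The exact two-sided permutation test of log2 CPM gave p = 0.0119 for Myc, Mycn, Max and Pvt1, unadjusted and the smallest value that the 84 assignments of 9 libraries allow. For Mxd3 the exact permutation test gave p = 0.0357, and p = 0.0595 with a prior count of 0.5 in place of 2. The median log2 fold change of the 10 genes was 0.45, and that of all tested genes -0.07.

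**Figure D3:**
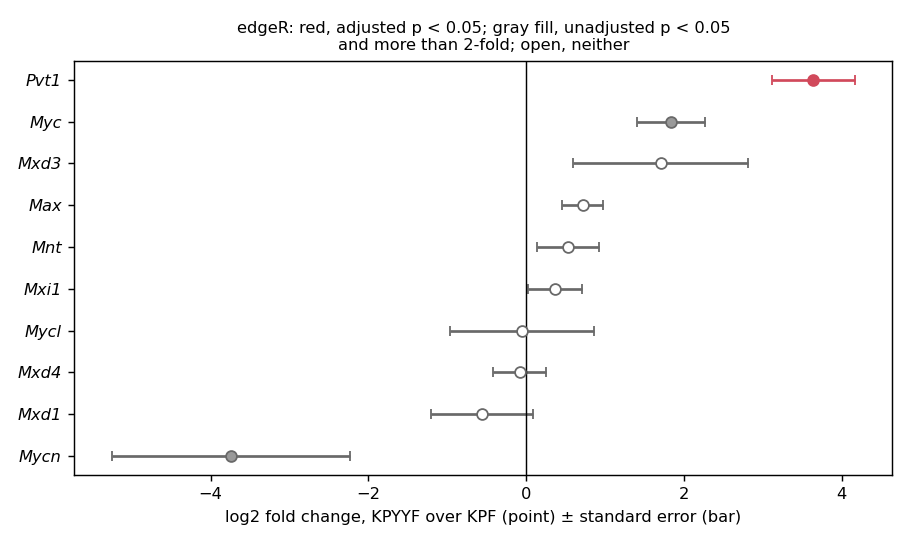
Log2 fold change of KPYYF over KPF (point) with its standard error (bar) for the 10 genes, in order of size; red is an adjusted p under 0.05, gray fill an unadjusted p under 0.05 with a change over 2-fold, and open points are neither. Pvt1 at 3.64 is red, Myc at 1.84 and Mycn at -3.75 are gray, and the bar of Mycn is the widest.

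Genes known to respond to Myc were described next, without a test of the list. Of 37 Myc-induced targets of ribosome assembly, metabolism and growth, none passed the adjusted threshold with edgeR and 2 did with DESeq2. Over all tested genes edgeR called 0.305% higher and 0.794% lower, and DESeq2 called more, with the numbers in the last section. Of the 37 targets, 19 had an unadjusted p under 0.05 and a positive change (6.1% of all tested genes). The rule of the study's methods was met by 6, all higher (4.2% of all tested genes). These 6 were Nop2 (log2 fold change 1.29) and Nop56 (1.29) of the nucleolus, Hspd1 (1.10), Cad (1.08) of pyrimidine synthesis, Dkc1 (1.02) of the box H/ACA ribonucleoprotein, and Rrp9 (1.01), a U3 small nucleolar component. The median log2 fold change of the list was 0.70, and 35 of 37 values were positive, with Hk2 at -0.62 and Ccnd2 at -0.68. Nop2 stood at 16.1 to 45.1 CPM in KPF and at 101, 67.5 and 81.0 CPM in KPYYF libraries. The CACGTG motif was present in 10 of 30 promoters of this list and in 1 of 19 promoters of the proliferation list.

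All 6 Myc-repressed targets had negative values, with a median of -1.38, and 3 met the rule of the methods, against 9.2% of all tested genes. These were Gadd45a (log2 fold change -1.92), a stress response gene, Ndrg1 (-1.60), a differentiation and hypoxia gene, and Cdkn1a (-1.28), the p21 inhibitor of cell cycle kinases, which is also a p53 target. None passed the adjusted threshold with edgeR and 2 did with DESeq2, which called more of all tested genes as well. None had an E-box among the 5 promoters at hand. Of the 22 proliferation genes 10 met the rule, all higher (4.2% of all tested genes), with a median of 1.00. They were Aurkb (3.08), Ccna2 (1.90), Ccnb1 (1.86), E2f1 (1.76), Plk1 (1.71), Cdc6 (1.66), Top2a (1.40), Mcm5 (1.34), Birc5 (1.24) and Cdc45 (1.15). None passed the adjusted threshold in the main edgeR fit. With DESeq2 5 passed, and 4 did with edgeR without a filter on low counts, and both settings called more of all tested genes as well. With limma-voom 2 passed, and 1 passed with edgeR's own filter on expression, without KPF 4269 or without KPYYF 4449. In the other alternatives none passed.

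Cofactors and regulators of Myc gave smaller medians, and few of their genes met the rule, which 4.2% of all tested genes met in the higher direction. Of 18 coactivators and corepressors only Kat2a (Gcn5, a histone acetyltransferase that Myc recruits) met the rule of the methods, at 1.38, and the median was 0.28. Of 15 genes of Myc protein turnover, Aurka (1.82), a kinase that stabilizes Myc family proteins, and Skp2 (1.66), a ubiquitin ligase subunit, met it, and the median was 0.37. Aurka stood at 6.73 to 24.1 CPM in KPF and at 42.8, 51.4 and 55.0 CPM in KPYYF libraries, without overlap (adjusted p = 0.0817, edgeR). Of 9 genes of proteins that bind Myc mRNA, Igf2bp2 met it, at 1.05, and the median was 0.27. In the parallel Mlx branch of the network and Mga, no gene met it; Mlxip had the largest value (1.07) and Mlxipl the smallest (-3.61, standard error 2.19), with a median of 0.33.

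**Figure D4:**
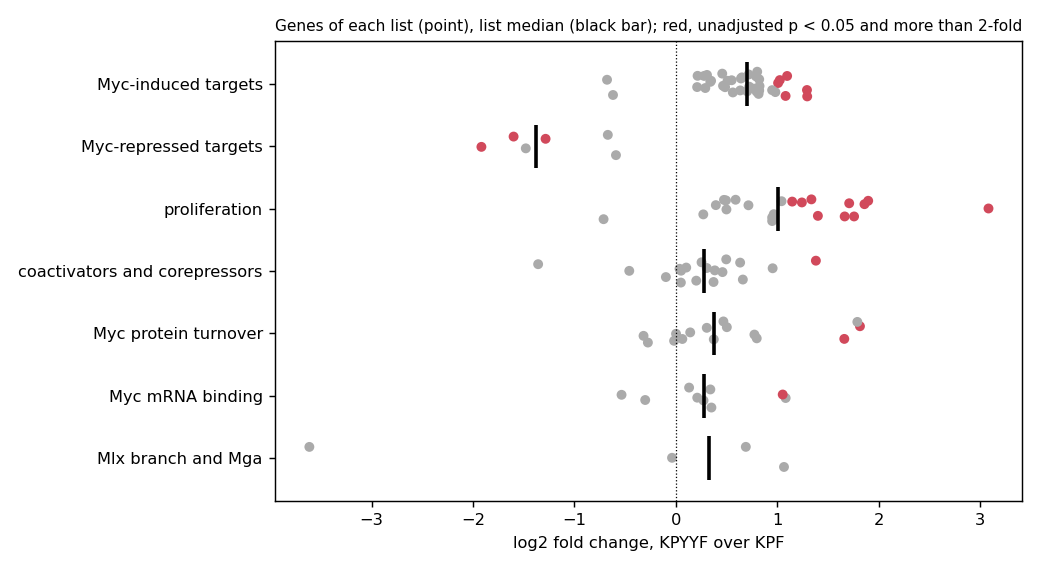
Log2 fold change of KPYYF over KPF for each gene (point) of 7 lists around Myc, with the list median as a black bar and genes with an unadjusted p under 0.05 and a change over 2-fold in red. The Myc-induced targets center on 0.70 and the proliferation genes on 1.00, the 6 Myc-repressed targets lie between -0.59 and -1.92, and the cofactor and regulator lists center between 0.27 and 0.37.

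The chromosomal surroundings of the paralogs were examined because Pvt1 and Myc are neighbors. Besides Pvt1, 2 tested genes lay wholly within 2 Mb of Myc, both upstream. Fam49b, which starts 1.94 Mb downstream and runs past that window, had a log2 fold change of 0.0020 (adjusted p = 0.999, edgeR). Fam84b, of unclear function, stood at 26.8 to 63.0 CPM in KPF libraries. In KPYYF 4449, 4891 and 4938 it stood at 851, 21.8 and 121 CPM, so that KPYYF 4891 lay below every KPF library although its Pvt1 and Myc levels lay above all of them. The noncoding gene 9930014A18Rik stood at 0.102 to 11.3 CPM in KPF and 89.3, 6.54 and 46.6 CPM in KPYYF libraries. Neither passed the adjusted threshold (adjusted p = 0.110 and 0.147, edgeR). Atad2, a bromodomain cofactor at -3.89 Mb from the start of Myc, rose in KPYYF (log2 fold change 1.78, standard error 0.31, adjusted p = 0.0229, edgeR), with 18.1 to 45.6 CPM in KPF and 102, 127 and 114 CPM in KPYYF libraries. Its adjusted p was 0.0561 without KPF 4435, 0.0672 without KPYYF 4891, 0.0743 without KPYYF 4938, 0.130 with the term for sex and 0.103 with only the libraries high in Xist, with log2 fold changes from 1.55 to 1.79. Its KPYYF levels lay closer together, unlike those of Fam84b. Atad2 was 1 of 7 tested genes in a list of Myc locus neighbors and the only one that passed, where 0.305% of all tested genes were higher. Sqle, Nsmce2, Trib1 and Asap1 of that list start nearer to Myc and overlapped between groups, with log2 fold changes of 0.45, -0.28, -0.41 and 0.35.

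Leaving out Myc and Pvt1, 24 genes with a mean of at least 10 CPM started within 5 Mb on either side of Myc. Their median difference in log2 CPM from the KPF mean was -0.32, 0.57 and 0.43 in KPYYF 4449, 4891 and 4938, and -0.20 to 0.40 in the KPF libraries. Over the 123 genes 5 to 20 Mb downstream it was -0.55, 0.40 and -0.21, and -0.18 to 0.16 in KPF. Over the 15 genes 5 to 20 Mb upstream it was 0.27, 0.88 and 0.49, and -0.43 to 0.37 in KPF. KPYYF 4891 and 4938 lay above every KPF library within 5 Mb of Myc and 5 to 20 Mb upstream. Downstream, KPYYF 4891 lay above the KPF range and KPYYF 4938 below it. KPYYF 4449, the library with the highest Myc, Pvt1 and Fam84b, had a negative median around Myc and downstream of it. Its median 5 to 20 Mb upstream was positive but within the KPF range, and 20 to 60 Mb upstream it was -0.18.

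**Figure D5:**
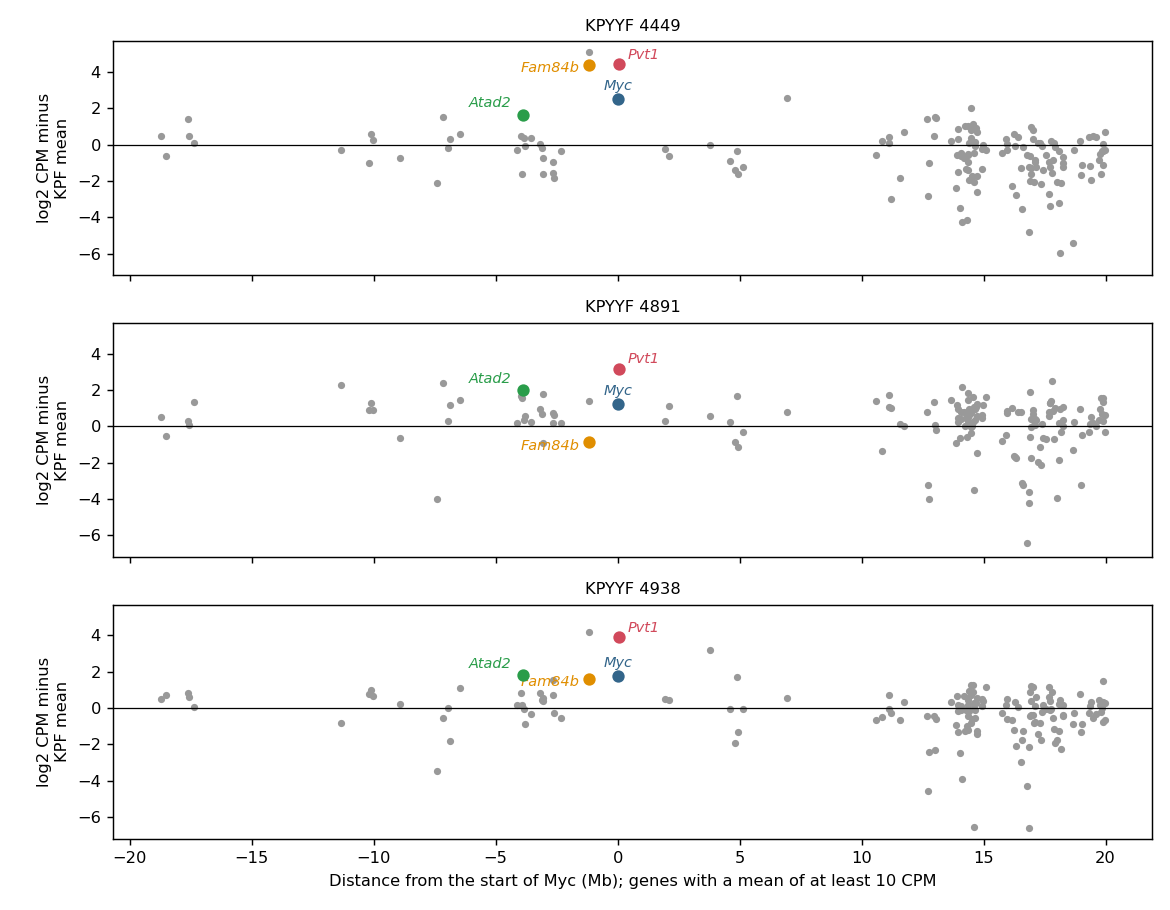
Difference in log2 CPM from the KPF mean in each KPYYF library for genes with a mean of at least 10 CPM, by distance from the start of Myc in Mb, with Myc, Pvt1, Fam84b and Atad2 in color. Pvt1 is above Myc in all 3 libraries, while Fam84b is at 4.39 in KPYYF 4449, -0.88 in KPYYF 4891 and 1.59 in KPYYF 4938.

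Around Mycn, 6 tested genes lay within 2 Mb. Of these, 1 met the rule of the methods, against 9.2% of all tested genes in the lower direction. It was Fam84a, 1.2 Mb away, with a log2 fold change of -1.23, the same sign as that of Mycn, and overlapping groups (adjusted p = 0.216, edgeR). Ddx1, a helicase gene often co-amplified with Mycn, had a log2 fold change of 0.89, opposite in sign to that of Mycn, with groups that did not overlap (adjusted p = 0.166, edgeR), and Nbas had a log2 fold change of -0.44. Around Mycl, 30 tested genes had a median of -0.31, while Mycl was at -0.05. Of the 30, 4 met the rule of the methods, against 4.2% of all tested genes higher and 9.2% lower. Higher were Mfsd2a, a lipid transporter gene next to Mycl (1.51, adjusted p = 0.261, edgeR), and Cdca8 (1.12, adjusted p = 0.175, edgeR). Lower were Heyl (-6.46, adjusted p = 0.107, edgeR) and Hpcal4 (-5.59, adjusted p = 0.233, edgeR), with KPYYF means of 0.036 and 0.039 CPM. The groups did not overlap for Mfsd2a and Heyl.

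As a description, genes were ranked by the Pearson correlation of log2 CPM with Myc, Pvt1 and Mycn over the 9 libraries, which share the group difference. The 5 genes most like Myc were Larp7 (r = 0.971), Brca2 (0.960), Lclat1 (0.944), Psmd11 (0.942) and Nol10 (0.936). Those most like Pvt1 were Nol10 (0.963), Dmwd (0.957), Impdh2 (0.950), Thoc1 (0.940) and Eml5 (0.930), with Nol10, which encodes a nucleolar protein, in both lists. Those most like Mycn were Dglucy (0.985), Smagp (0.982), Cpn1 (0.981), Dio3 (0.968) and Cited4 (0.964).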

How the data were processed

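RNA from sorted cells (6 KPF and 3 KPYYF libraries) was read with the Lexogen QuantSeq 3′ Fwd kit. The values deposited by the authors are raw counts per Ensembl gene, without normalization, in the layout of HTSeq. The submitters' processing notes name STAR, HTSeq and mm10, without versions. The study's methods describe hybridization to bead arrays, removal of genes whose reads sum low, and DESeq2, whereas the files hold whole numbers whose totals differ between libraries. Reads on genes were 37.3 to 42% of each file, and the 5 summary lines (not unique 43.8 to 53.4%, no feature 8.63 to 16%, ambiguous 0.231 to 0.312%) were left out. Reads on genes were 38.5 to 42% in KPF and 37.3 to 38.2% in KPYYF libraries. Reads that were not unique were 43.8 to 48.5% in KPF and 49.2 to 53.4% in KPYYF libraries. The groups thus did not overlap in either share, and the part of this in the differences was not tested. The study describes the libraries as tumors; since 4504h and 4504s share a mouse number, p values measure the spread between libraries rather than between mice.

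Identifiers were matched to symbols in GENCODE M21 (47224 of 47643). Genes with at least 100 counts in all were scaled by TMM (factors 0.832 to 1.077) and tested with edgeR 4.0.16 (quasi-likelihood, robust, R 4.3.3), two-sided and without covariates. Adjustment of p was by the Benjamini-Hochberg method over the 14105 genes, with a threshold of 0.05. Scripts were tested on simulated data. Log2 CPM used a prior count of 2. DESeq2 1.42.0 and limma 3.58.1 served as alternatives. The members and lists were chosen with earlier results of these data known. All 10 genes were named, and so were the 5 genes most correlated with Myc, Pvt1 and Mycn. Of each other pathway list, every gene with an unadjusted p under 0.05 and a change over 2-fold was named, or else its largest and smallest value. Hk2, Ccnd2, Paics, Mybbp1a, Cdh1, Krt18, Muc1, Fam49b, 9930014A18Rik, Sqle, Nsmce2, Trib1, Asap1, Fam84a, Cdca8, Heyl and Hpcal4 were named after their values were seen. An allele that both groups carry is not reported here. Promoters came from RefSeq on GRCm38.p6.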

Additional observations from a re-analysis of the deposited data

How the results depend on the processing

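Across the alternatives (DESeq2, 2 other normalizations, 2 other filters, limma-voom, the 4504 libraries summed, a term for sex from Xist, each library left out in turn and, chosen after seeing the data, only the 6 libraries with at least 1000 Xist counts), Pvt1 was called in 16 of 18, Myc in 2 of 18 and Mycn in 1 of 17, since Mycn was under the minimum of 100 counts in the Xist-high libraries. Pvt1 lost its call with the term for sex (3.65) and with the Xist-high libraries alone (3.66). Myc gained a call with DESeq2 (1.85) and without a filter on low counts (1.83), and Mycn with DESeq2 (-3.82). The number of the 10 genes called, 1 as reported, was 3 with DESeq2, 2 without a filter, and 0 with the term for sex and with the Xist-high libraries. Mycl turned positive with the term for sex (0.16) and the Xist-high libraries (0.17), as did Mxd1 (0.22 in each). With a library left out the log2 fold change ranged from 1.43 to 2.09 for Myc, 3.31 to 4.03 for Pvt1, -4.39 to -3.49 for Mycn, -0.63 to 0.46 for Mycl and -0.30 to 0.12 for Mxd4, which reversed Mycl without KPF 4269, 4435 or 4601 or KPYYF 4938, and Mxd4 without KPF 4515 or KPYYF 4938. The causes were not tested. The number of all genes with an adjusted p under 0.05, 43 higher and 112 lower as reported, was 269 and 928 with DESeq2, 88 and 219 without a filter, and 5 and 46 with the term for sex; with a library left out it fell as low as 6 higher (without KPF 4435) and 13 lower (without KPYYF 4938). No paired analysis was possible because replicate numbers only follow the order of the libraries and the groups share no mouse number. The 2 other normalizations moved the median of all genes by 0.019 (RLE) and 0.021 (upper quartile) on the log2 scale. No alternative moved it by more than 0.0437, the value without KPYYF 4891. Depth limits Mycn and Mxd3, which are near or under 3 counts in some libraries.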
